A study of Mus musculus with 28 samples.

Results

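The genes described here are 10 genes of Ret signalling in the tips of the ureteric bud: the receptor Ret, its co-receptor Gfra1, the transcription factors Etv4 and Etv5, the feedback inhibitors Spry1, Spry2 and Spry4, and Myb, Cxcr4 and Sox9. They were named by symbol, and every probe set annotated to exactly 1 of these symbols was taken. That gave 24 of the 45037 probe sets and 10 of the 18193 genes on the arrays. All RNA came from whole mouse kidneys, in 7 groups of 2 samples. Wild type kidneys came from CD-1 embryos (E12.5, E13.5 or E16.5), pooled within a sample, and both kidneys of an adult mouse whose strain and age are not stated. The others came from Hoxa11/Hoxd11 double null embryos, here called null, at the same 3 embryonic stages. Each null sample held both kidneys of 1 embryo, of a strain the labels do not state, so pooling and perhaps strain differ between the genotypes. The labels number the 2 samples of a group without saying how they were bred or collected, so p-values measure only the spread between these samples, which may be technical. Each sample was hybridised to 2 array designs, 430A and 430B, which gave 28 arrays.

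In the developing kidney Gdnf, a ligand made by the metanephric mesenchyme, binds the co-receptor Gfra1 and activates the receptor tyrosine kinase Ret on ureteric bud cells. Ret acts through adaptors and the ERK and PI3 kinase cascades, and raises the ETS factors Etv4 and Etv5, which are needed for normal branching. Sprouty proteins are induced by the same receptors and damp the ERK cascade. Hoxa11 and Hoxd11, with Hoxc11, act in the mesenchyme upstream of Gdnf. Since whole kidneys were used, ureteric tips were a small part of each sample, and fewer cells of a type cannot be told apart from less RNA per cell.

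A value is a MAS5 signal, a linear probe set intensity that the authors scaled to the same trimmed mean on every array (1500.3 to 1500.7). For tests, signals below a floor (86.1 on 430A, 148.1 on 430B) were set to it and log2 was taken. Testing was limited to probe sets whose group mean passed the median of their design, a signal of 459.5 on 430A and 622 on 430B, in 1 group or more. Of the 24 probe sets 16 were tested, 10 on 430A and 6 on 430B, and all 10 genes had at least 1. A difference is a limma log2 fold change with its SE, n = 2 samples in each group, and is positive where the first-named group had more signal. "Rose" and "fell" are used where the p, adjusted by Benjamini-Hochberg over all 30564 tested probe sets, was under 0.05. Where a gene had several tested probe sets, 430A was read before 430B, then the brightest, and the others are given beside it. Only 2 arrays per group and design limit the precision.

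Several features of the arrays move with genotype. The 3' over 5' actin ratio, a measure of RNA quality and amplification, was 1.26 to 2.27 in the null samples on 430A and 2.88 to 4.13 in the wild type embryonic samples, without overlap. On 430B it was 1.26 to 2.32 and 2.51 to 4.38. No scan day held both genotypes of a stage, so within a stage these cannot be told apart, and the 4 arrays of null E16.5 were read on another scanner type than all others. Their median signal on 430B was 381.7 and 426.0, against 585.4 to 852.5 on the other 430B arrays. Hoxa11 checked the labels: its 430A probe set read 3431 and 2321 in wild type and 397.9 and 500.1 in null samples at E12.5, 2353 and 2117 against 351.6 and 422.2 at E13.5, and 2009 and 1940.0 against 211.0 and 216.3 at E16.5. The Hoxd11 probe set lay under the filter. It read 394.6 and 417.5 in wild type and 300.3 and 529.6 in null samples at E12.5, and 94.5 and 91.0 in the adult. At E13.5 it read 415.4 and 349.7 against 405.8 and 447.8, and at E16.5 326.6 and 372.4 against 272.5 and 391.4. The genotypes overlapped at each stage, so Hoxd11 gave no check of the labels. Of 12 markers of the ureteric epithelium 11 were measured, each above the filter in at least 1 group.

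The summed signal of ureteric markers differed between stages and genotypes, while single markers were called in both directions. The sum of the 10 markers on 430A was 31702 to 32061 in wild type and 10623 to 21210 in null samples at E12.5. It was 37104 to 39885 and 28532 to 30081 at E13.5, and 64751 to 65404 and 73352 to 79500 at E16.5. As the background of such counts, 12.4% of all tested probe sets were called higher and 6.19% lower in null kidneys at the first stage, against 14.4% and 8.97% at the second and 15.9% and 19.2% at the third. In null kidneys at E12.5 4 of the 11 markers fell and 0 rose: Calb1, a calcium-binding protein, by -2.28 ± 0.30, the keratins Krt8 and Krt18, and Cdh1, the epithelial cadherin, by -1.08 ± 0.28. At E13.5 Calb1 fell and Tfcp2l1, a collecting duct factor, rose. At E16.5 3 rose, led by the keratin Krt19 with 1.73, and Calb1 and the water channel Aqp3 fell. A 430B probe set of Calb1 gave 1.67 at E13.5, and a second 430A probe set of Aqp3 gave 2.72 at E16.5, both called higher. The part of these shifts in the values below was not tested.

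The 16 tested probe sets are shown sample by sample.

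**Figure D1:**
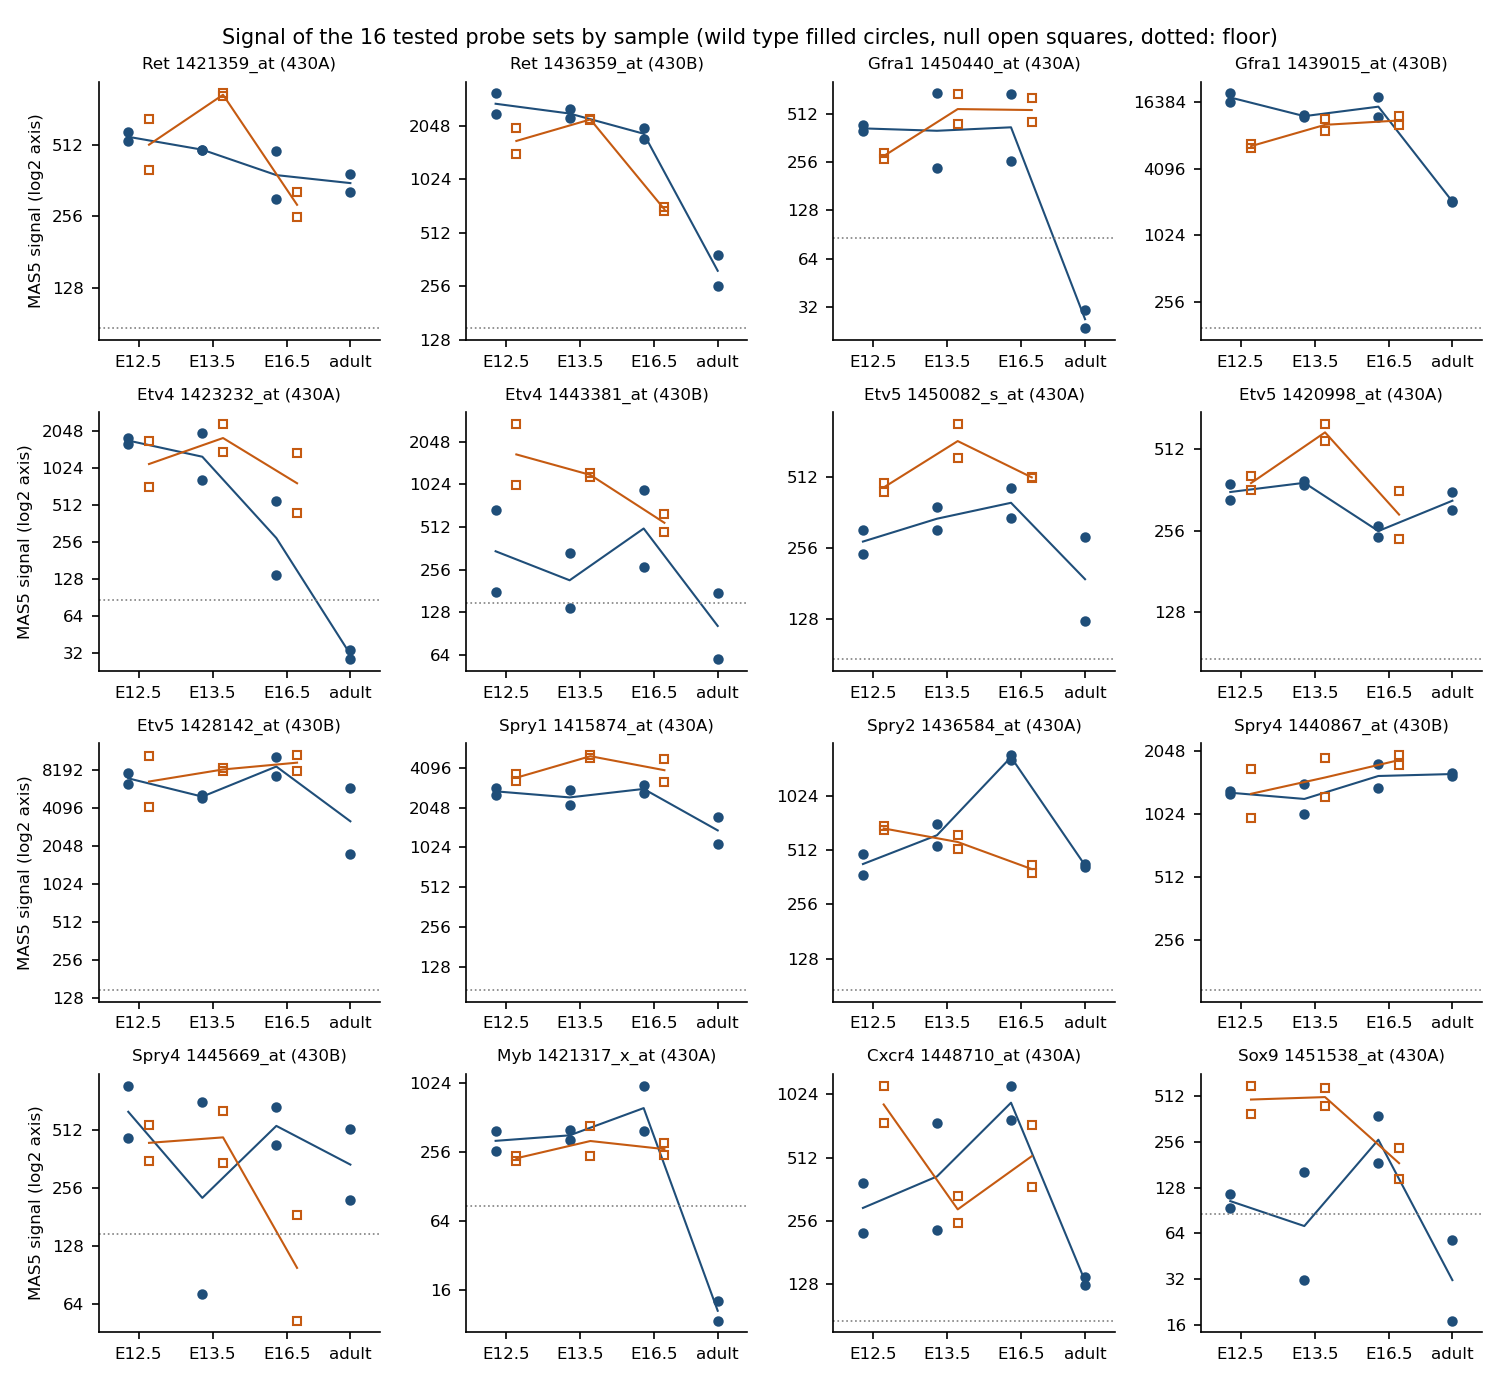
MAS5 signal (log2 axis) of each tested probe set in every sample at E12.5, E13.5, E16.5 and in the adult; filled circles are wild type, open squares null, lines join the geometric means of 2 samples and the dotted line is the floor. Spry2 stood at 1624 and 1726 in wild type E16.5 kidneys and at most at 712 in any other sample.

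Ret signal was high in embryonic and low in adult kidneys by the 430B probe set 1436359_at, and it was low in E16.5 null kidneys. This probe set read 2379.7 and 3124 in the wild type samples at E12.5, then 2274 and 2537 at E13.5 and finally 1989 and 1719 at E16.5, against 381.8 and 256.0 in the adult. In null kidneys it read 1422 and 1993 at E12.5, then 2241 and 2208 at E13.5 and finally 677.0 and 710.9 at E16.5. Every embryonic sample thus lay above both adult samples, and both null E16.5 samples lay below all other embryonic samples. Both null E16.5 samples also had the lowest 430B medians, and the part of that here was not tested. Ret fell in null against wild type kidneys at E16.5 by -1.41 ± 0.35 (2.66-fold, adjusted p = 0.00676). The differences of -0.70 ± 0.35 at E12.5 (adjusted p = 0.177) and -0.11 ± 0.35 at E13.5 (adjusted p = 0.845) did not pass, and whether the effect differs between stages did not pass either (F = 3.57, adjusted p = 0.181). Between E13.5 and E16.5 Ret fell by -1.68 ± 0.35 in null kidneys (adjusted p = 0.00727), while the wild type difference was -0.38 ± 0.35 (adjusted p = 0.457), and the 2 steps were not shown to differ (-1.30 ± 0.49, adjusted p = 0.0949). Wild type kidneys exceeded the adult 8.72-fold at E12.5 (3.12 ± 0.35, adjusted p = 7.28e-06) and 5.91-fold at E16.5 (2.56 ± 0.35, adjusted p = 5.62e-05).

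The 430A probe set of Ret, 1421359_at, did not show all of this. It read 530.2 and 577.8, 489.1 and 487.7, and 481.6 and 302.3 in wild type kidneys at the 3 stages, 324.6 and 384.1 in the adult, and 400.6 and 656.1, 844.9 and 820.6, and 322.6 and 253.6 in null kidneys. Its adult samples overlapped the embryonic ones, and wild type E12.5 against adult gave 0.65 ± 0.33 (adjusted p = 0.151). Both probe sets fell in null kidneys between E13.5 and E16.5, this one by -1.54 ± 0.33 (adjusted p = 0.00926). For null against wild type at E16.5 it gave -0.42 ± 0.33 (adjusted p = 0.345). Ret is also a receptor of neurons and neural crest cells. Of 6 measured markers of these cells 4 fell in null kidneys between E13.5 and E16.5 and 0 rose, with a median of -1.48. Of all tested probe sets 9.2% fell and 5.83% rose in this comparison, with a median of -0.26. Under quantile normalization and median centring 2 and 3 of 5 tested markers fell, with medians of -0.92 and -1.26. The summed signal of the 6 markers on 430A was 4974 to 5242, 3866 to 5460 and 1282 to 2288 in null kidneys at the 3 stages. In wild type kidneys it was 2048 to 2475, 2351 to 2537 and 2072 to 2383. The part of these cells in the Ret values was not tested. Without wild type E16.5 replicate 1 the 430B difference at E16.5 was -1.31 (adjusted p = 0.0554), and under quantile normalization and median centring it was -0.76 and -0.75 (adjusted p = 0.0982 and 0.101). With the actin ratio as a covariate it was -1.70 (adjusted p = 0.00444). The fall from E13.5 to E16.5 in null kidneys kept its call in 12 of 14 alternative settings on 430A and in 12 of 15 on 430B. The values ran from -1.72 to -1.24 and from -1.72 to -0.96. On 430A the call was lost without null E16.5 replicate 2 (-1.37) and with only the groups compared.

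Gfra1, which presents Gdnf to Ret and is also made by mesenchymal cells, was high in every embryonic group and fell in null samples at E12.5. The 430B probe set 1439015_at, at the 96.5th percentile of its design, read 19675 and 16506 in wild type and 6266 and 6852 in null samples at E12.5. It read 12534 and 11919.6 against 9035 and 11532 at E13.5, 18275 and 12130.1 against 12365 and 10096 at E16.5, and 2035 and 2109 in the adult. The E12.5 groups lay far apart, the E13.5 groups lay close without overlapping, and the E16.5 groups overlapped. At E12.5 Gfra1 fell in null kidneys 2.75-fold (-1.46 ± 0.27, adjusted p = 0.00268). The later stages gave -0.26 ± 0.27 (E13.5, adjusted p = 0.512) and -0.41 ± 0.27 (E16.5, adjusted p = 0.248). The change of the effect between stages did not pass (F = 5.84, adjusted p = 0.0778).

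The 430A probe set of Gfra1, 1450440_at, was dim. It read 397.0 and 431.6 in wild type and 267.4 and 289.4 in null samples at E12.5, again without overlap, and -0.57 ± 0.50 (adjusted p = 0.452). Its adult signals of 23.5 and 30.6 lay below the floor, so its rise over the adult, 2.27 ± 0.50 at E12.5 (adjusted p = 0.00283), is a difference to the floor, and with the floor at the 40th percentile it was 0.57 (adjusted p = 0.369). The 430B probe set exceeded the adult by 3.12 ± 0.27 (8.70-fold, adjusted p = 7.14e-07) at E12.5 and 2.85 ± 0.27 (adjusted p = 2.88e-06) at E16.5. The E12.5 null fall of the 430B probe set kept its call in 14 of 15 alternative settings. The exception was the actin ratio as a covariate, with -1.39 and adjusted p = 0.146.

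Etv4, an ETS factor raised by Ret, was high in early wild type kidneys and near or under the floor in the adult. Its 430A probe set 1423232_at read 1629.6 and 1828 at E12.5, then 1976 and 821.9 at E13.5, then 139.4 and 550.3 at E16.5, and 28.5 and 34.1 in the adult. In null kidneys it read 721.5 and 1711 at E12.5, then 1391 and 2355 at E13.5 and finally 440.6 and 1361 at E16.5. The wild type E16.5 samples lay below those of E13.5, and null and wild type samples overlapped at every stage. Etv4 exceeded the adult by 4.33 ± 0.67 at E12.5 (at the floor in both adult samples, adjusted p = 0.000161). Between E13.5 and E16.5 wild type kidneys fell by -2.20 ± 0.67 (4.60-fold, adjusted p = 0.0334). That call was lost without wild type E13.5 replicate 1 (-1.57, adjusted p = 0.207) and without wild type E16.5 replicate 1 (-1.21, adjusted p = 0.323). Null against wild type gave -0.64 ± 0.67, 0.51 ± 0.67 and 1.48 ± 0.67 at the 3 stages (adjusted p = 0.536, 0.614 and 0.0988).

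The 2 tested probe sets of Etv4 differed in direction. The 430B probe set 1443381_at read 670.0 and 178.0 in wild type and 1016 and 2732 in null samples at E12.5, 137.3 and 338.2 against 1229 and 1160 at E13.5, and 266.9 and 936.1 against 472.2 and 637.1 at E16.5. It read 176.0 and 59.8 in the adult. By it Etv4 rose in null kidneys by 2.27 ± 0.74 at E12.5 (adjusted p = 0.0472) and 2.42 ± 0.74 at E13.5 (adjusted p = 0.031), and wild type E16.5 against E13.5 was 1.16 ± 0.74 (adjusted p = 0.278). It passed the filter only in null E12.5 and null E13.5 and so had to be higher there. Its E12.5 call was lost without wild type E12.5 replicate 2 (1.31, adjusted p = 0.349) and null E12.5 replicate 2 (1.56, adjusted p = 0.301). The E13.5 call was lost without wild type E13.5 replicate 1 or 2 (1.82 and 3.01, adjusted p = 0.176 and 0.0524) and without null E13.5 replicate 1 or 2 (2.37 and 2.46, adjusted p = 0.114 and 0.101).

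Etv5, the related ETS factor, was bright in every embryonic group by 1 of its 3 tested probe sets. Its brightest probe set, 1428142_at on 430B at the 94.6th percentile, read 7759 and 6394 at E12.5, then 4902 and 5194 at E13.5, then 10459 and 7301 at E16.5, and 1766.5 and 5854 in the adult. In null kidneys it read 4174 and 10583, 8522 and 8052, and 8122 and 10835. The 430A probe set 1450082_s_at read 306.4 and 242.3, 303.7 and 382.6, and 460.4 and 344.8 in wild type embryos, 124.8 and 284.6 in the adult, and 441.9 and 485.1, 862.1 and 617.0, and 507.2 and 515.2 in null kidneys. By this probe set every null sample lay above both wild type samples of its stage. Etv5 rose over the mean of the 3 stages by 0.74 ± 0.22 (adjusted p = 0.0141), with 1.10 ± 0.38 (adjusted p = 0.0519) at E13.5. This probe set passed the filter in the 3 null groups alone, and so had to be higher in null kidneys. The other 2 probe sets, 1420998_at and 1428142_at, gave 0.31 ± 0.17 (adjusted p = 0.153) and 0.24 ± 0.28 (adjusted p = 0.50) over the stages. Wild type E16.5 exceeded the adult by 1.08 ± 0.38 (adjusted p = 0.0346) and 1.44 ± 0.49 (adjusted p = 0.0298) by 1450082_s_at and 1428142_at, and by 1420998_at the difference was -0.37 ± 0.30. Adult replicate 1 was the lower one: without it the differences were 0.49 (adjusted p = 0.302) and 0.58 (adjusted p = 0.359), and without adult replicate 2 they were 1.67 and 2.31. Without wild type E16.5 replicate 1 they were 0.87 and 1.18 (adjusted p = 0.196 and 0.18), and without replicate 2 of that group 1.29 and 1.70 (adjusted p = 0.0552 and 0.0536).

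Spry2 rose in wild type kidneys at E16.5 and did not in null kidneys. Its 430A probe set 1436584_at read 489.9 and 374.7 in wild type kidneys at E12.5, then 537.5 and 711.7 at E13.5, then 1624 and 1726 at E16.5, and 414.8 and 428.2 in the adult. In null kidneys it read 691.8 and 657.9 at E12.5, then 521.7 and 617.0 at E13.5 and finally 422.8 and 381.8 at E16.5. Both wild type E16.5 samples lay above all other samples, and both null E16.5 samples lay below all null samples of earlier stages. Wild type Spry2 rose from E13.5 to E16.5 by 1.44 ± 0.28 (2.71-fold, adjusted p = 0.00381), and all 4 arrays of that comparison shared a scan day. Null kidneys changed by -0.50 ± 0.28 (adjusted p = 0.235). At E16.5 Spry2 fell in null against wild type kidneys by -2.06 ± 0.28 (4.17-fold, adjusted p = 0.000215), against 0.66 ± 0.28 (adjusted p = 0.119) at E12.5 and -0.12 ± 0.28 (adjusted p = 0.78) at E13.5. The effect differed between stages (F = 24.9, adjusted p = 0.00191), and the step from E13.5 to E16.5 was lower in null kidneys by -1.93 ± 0.40 (adjusted p = 0.00758). The step, the E16.5 difference and the test between stages rest on the same 2 wild type E16.5 samples. The fall at E16.5 and the wild type rise were called in all 15 alternative settings, with ranges of -2.13 to -1.85 and 1.23 to 1.64. The other Spry2 probe set, 1421656_at, was not tested and read 160.3 to 344.0 over all samples, with 305.0 and 280.3 in wild type and 293.1 and 238.3 in null kidneys at E16.5.

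Because Etv4 and Etv5 bind the ETS core, promoters of the members were searched for CCGGAA on both strands. RefSeq (GRCm38.p6) promoters, 250 bases before to 50 bases after a start, were given for 6 of the 10 genes, 7 promoters in all. The motif was found in 2 of them, those of Spry2 and Gfra1, each once, and in 15% of all 32544 promoters. They are shown as the 2 member promoters with a match, whatever the null differences of these genes. Both lie on the minus strand, Spry2 at chr14:105896770-105897069 and Gfra1 at chr19:58455349-58455648, and the motif is in capitals, at base 33 after the start in Spry2 and 156 bases before it in Gfra1. A match is a description of the letters and not a site of binding.
Spry2 promoter: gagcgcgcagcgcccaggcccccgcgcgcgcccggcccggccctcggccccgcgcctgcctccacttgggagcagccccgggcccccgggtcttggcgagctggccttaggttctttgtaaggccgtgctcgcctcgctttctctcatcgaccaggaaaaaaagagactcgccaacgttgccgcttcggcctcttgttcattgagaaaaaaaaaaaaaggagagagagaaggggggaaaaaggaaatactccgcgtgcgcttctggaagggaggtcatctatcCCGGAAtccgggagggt
Gfra1 promoter: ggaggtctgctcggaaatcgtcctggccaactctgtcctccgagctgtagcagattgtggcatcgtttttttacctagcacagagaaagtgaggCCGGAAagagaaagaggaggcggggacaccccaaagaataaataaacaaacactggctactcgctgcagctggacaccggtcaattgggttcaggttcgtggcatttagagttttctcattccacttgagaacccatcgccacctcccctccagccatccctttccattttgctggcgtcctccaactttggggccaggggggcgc

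Spry1, the sprouty whose loss in mice leaves kidneys with extra ureteric buds, rose in null kidneys. Its probe set 1415874_at read 2891 and 2556 at E12.5, then 2800.4 and 2137 at E13.5, then 3051 and 2634 at E16.5, and 1750.4 and 1085 in adult wild type kidneys. In null kidneys it read 3232 and 3672, 4884 and 5135, and 3223 and 4784. Null samples lay above wild type samples at each stage, and all embryonic samples above both adult samples. The difference was 1.03 ± 0.29 (2.05-fold, adjusted p = 0.021) at E13.5, 0.34 ± 0.29 (adjusted p = 0.435) at E12.5 and 0.47 ± 0.29 (adjusted p = 0.222) at E16.5. Over the stages it was 0.62 ± 0.17 (adjusted p = 0.00884). The E13.5 call was lost under median centring, with only the groups compared, and with the actin ratio as a covariate (0.54, adjusted p = 0.483). It was also lost without wild type E13.5 replicate 2 (0.84) and without null E13.5 replicate 1 or 2 (1.07 and 1.00).

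Spry1 also exceeded the adult, by 0.98 ± 0.29 at the first stage (E12.5, adjusted p = 0.0168) and 1.04 ± 0.29 at the last (E16.5, adjusted p = 0.0106). Without adult replicate 2 these were 0.64 and 0.70 (adjusted p = 0.126 and 0.083). Without wild type E12.5 replicate 1 or 2 the first was 0.89 and 1.07 (adjusted p = 0.11 and 0.0554), and without wild type E16.5 replicate 1 the second was 0.93 (adjusted p = 0.0774).

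Spry4, the third sprouty, was read by 1440867_at on 430B. Its wild type signals were 1270.2 and 1310.5, 1422 and 1021, and 1772 and 1356 at the 3 embryonic stages and 1611 and 1558 in the adult. Null kidneys read 972.8 and 1670.5, 1899 and 1225, and 1741 and 1957. The adult samples lay within the embryonic range, and no comparison passed, with null differences of -0.02 ± 0.37, 0.34 ± 0.37 and 0.25 ± 0.37. The other tested Spry4 probe set, 1445669_at, passed the filter in wild type E12.5 alone and gave -1.70 ± 0.71 at E16.5 (adjusted p = 0.0774).

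Sox9, a transcription factor of ureteric tips and of cartilage and other progenitors, was brighter in null than in wild type kidneys at the first 2 stages. Probe set 1451538_at read 93.5 and 116.4 in wild type and 392.0 and 599.4 in null samples at E12.5, 31.5 and 162.4 against 437.9 and 578.0 at E13.5, 184.6 and 377.3 against 146.5 and 233.9 at E16.5, and 17.1 and 58.3 in the adult. The groups lay apart at E12.5 and E13.5 and overlapped at E16.5. Sox9 rose in null kidneys by 2.22 ± 0.43 (4.65-fold, adjusted p = 0.00375) and 2.09 ± 0.43 (4.25-fold, adjusted p = 0.00438), and E16.5 gave -0.51 ± 0.43 (adjusted p = 0.374). The effect differed between stages (F = 12.8, adjusted p = 0.0126). Null kidneys fell from E13.5 to E16.5 by -1.44 ± 0.43 (adjusted p = 0.0396). This fall was not called without null E13.5 replicate 1 or 2 (-1.64 and -1.24, adjusted p = 0.0774 and 0.178) or without null E16.5 replicate 1 (-1.10, adjusted p = 0.25). Sox9 passed the filter only in null E12.5 and null E13.5, and so had to differ there.

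Sox9's rise in null kidneys lay beside a rise of 2 of 4 measured cartilage markers at E12.5 and of 1 at E13.5. The summed signal of 3 cartilage markers on 430A was 12728 to 13090 in null and 3051 to 3884 in wild type kidneys at E12.5, 3953 to 5034 against 2284 to 2398 at E13.5, and 1343 to 1780 against 1442 to 1796 at E16.5. Of 4 cartilage genes measured 2 rose at E12.5, Col9a1 and Col2a1, both cartilage collagens, by 2.03 and 1.87, beside 12.4% of all tested probe sets. The other 2 measured, Acan and Sox5, gave 0.04 and 0.44 and did not pass, and Matn1 and Comp lay under the filter. At E13.5 1 of the 4 rose and 0 fell, beside 14.4% and 8.97%, with a median of -0.04. Acan then read 424.2 and 515.4 in wild type and 241.8 and 283.6 in null samples, and Sox5 514.4 and 836.4 against 77.1 and 342.9. Under quantile normalization and under median centring 1 of 3 tested rose and 1 fell at E13.5. The part of cartilage cells in the Sox9 values was not tested. With the actin ratio as a covariate Sox9 gave 1.87 (adjusted p = 0.109) at E12.5 and 1.68 (adjusted p = 0.157) at E13.5. Without a filter the adjusted p was 0.0197 and 0.0192. Under quantile normalization and median centring Sox9 lay under the filter, so its rise was not tested there. The 2 other Sox9 probe sets, 1424950_at and 1433889_at, were not tested and read 6.7 to 507.3 over all samples. By both, null and wild type samples overlapped at E12.5 and at E13.5. Their mean signals at E12.5 were 148.9 and 188.9 in wild type and 196.1 and 110 in null kidneys. At E13.5 they were 225.2 and 259.6 in wild type and 166.7 and 205.3 in null kidneys.

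Wild type E16.5 exceeded the adult in Sox9 by 1.62 ± 0.43 (adjusted p = 0.00819), with both adult samples below the floor. Without wild type E16.5 replicate 2 this was 1.10 (adjusted p = 0.104), and with the floor at the 40th percentile 0.22 (adjusted p = 0.473).

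Cxcr4, the receptor of the chemokine Cxcl12, varied more between samples. Probe set 1448710_at read 389.2 and 224.4 in wild type and 1123 and 748.3 in null samples at E12.5, 750.8 and 231.7 against 250.6 and 337.7 at E13.5, 774.0 and 1128 against 730.8 and 370.7 at E16.5, and 139.2 and 126.9 in the adult. The groups lay apart at E12.5 and overlapped at E13.5. At E16.5 they lay close without overlapping (774.0 against 730.8), in the opposite direction to E12.5. The differences of -0.52 ± 0.51 at E13.5 and -0.84 ± 0.51 at E16.5 did not pass (adjusted p = 0.489 and 0.216). Cxcr4 rose in null samples at E12.5 by 1.63 ± 0.51 (3.10-fold, adjusted p = 0.0413). This call was lost without any 1 of the 4 samples: 2.03 and 1.24 without wild type E12.5 replicate 1 or 2 (adjusted p = 0.0756 and 0.25), and 1.34 and 1.93 without null E12.5 replicate 1 or 2 (adjusted p = 0.195 and 0.084). The E12.5 call was also lost under quantile normalization, median centring and no filter. The actin ratio as a covariate, scan day as a random effect and fitting only the groups compared ended that call too. The change of the effect between stages did not pass (F = 6.87, adjusted p = 0.0568). Wild type E16.5 exceeded the adult by 2.81 ± 0.51 (7.03-fold, adjusted p = 0.000658), in all 14 alternatives run.

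Cxcr4 is also made by blood and endothelial cells. Endothelial markers, summed over 6 genes, were 16832 to 19030 in null and 3676 to 3819 in wild type kidneys at E12.5, 14808 to 24202 against 4102 to 4419 at E13.5, and 23352 to 23854 against 6229 to 9119 at E16.5. Of the 6 endothelial genes 5 rose at E12.5, led by Tie1, a receptor of blood vessels, with 3.84. Blood markers, summed over 4 genes, were 9575 to 12625 in null and 3998 to 4051 in wild type kidneys at E12.5, and 1 of 4, Csf1r, rose. The part of these cells in the Cxcr4 values was not tested.

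Myb, a transcription factor of proliferating progenitors, was above the floor in every embryonic sample and below it in the adult. Probe set 1421317_x_at read 388.5 and 263.0, 394.1 and 323.4, and 972.3 and 392.1 in wild type embryos, 8.6 and 12.8 in the adult, and 213.0 and 237.7, 426.6 and 237.8, and 305.3 and 239.9 in null kidneys. It exceeded the adult by 1.89 ± 0.43 (E12.5, adjusted p = 0.00308) and by 2.84 ± 0.43 (E16.5, adjusted p = 0.000143), both to the floor, and with the floor at the 40th percentile the first was 0.24 (adjusted p = 0.682). At E16.5 Myb fell in null kidneys by -1.19 ± 0.43 (adjusted p = 0.044), and it passed the filter only in wild type E16.5, where it had to be higher. Without wild type E16.5 replicate 1, the sample at 972.3, the difference was -0.53 (adjusted p = 0.409), and without replicate 2 of that group it was -1.85. Without null E16.5 replicate 1 or 2 it was -1.36 and -1.02 (adjusted p = 0.0812 and 0.189).

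Across the members the null differences ran both ways. At E12.5 2 of the 10 genes rose by the probe set that reads them and 0 fell, beside 12.4% of all tested probe sets higher and 6.19% lower. At E13.5 2 rose (Spry1 and Sox9) and 0 fell, beside 14.4% and 8.97%. At E16.5 0 rose and 2 fell (Spry2 and Myb), beside 15.9% and 19.2%. Over the mean of the 3 stages 3 rose (Etv5, Spry1 and Sox9) and 1 fell (Spry2), beside 23.4% and 23.5%. Of these, Etv5 and Sox9 passed the filter only through null groups, so the filter favoured their rise. The median member probe set was 0.16, 0.48, -0.08 and 0.14 in these comparisons, and the median of all tested probe sets -0.02, -0.02, -0.22 and -0.10. These shares are near the background and are no result about the members as a group. Whether the null effect differs between stages was called in 2 of 10, Spry2 and Sox9, beside 14.3% of all. The E16.5 effect less the E13.5 effect, added after the data were seen, fell in the same 2 genes and rose in 0, beside 8.7% lower and 4.14% higher.

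**Figure D2:**
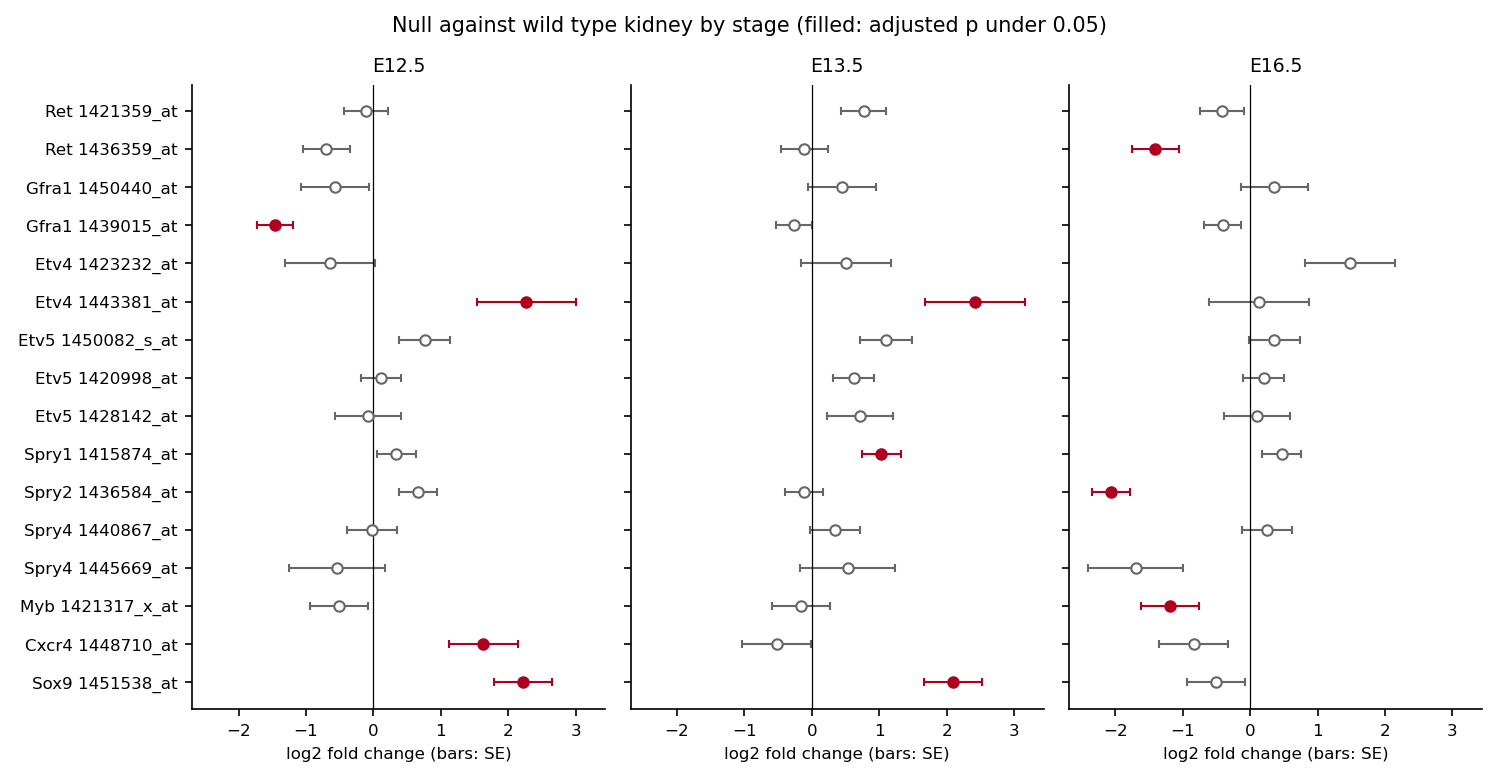
Log2 fold change of null against wild type kidneys (x axis) for the 16 tested probe sets at each embryonic stage; points are fitted values with 2 samples per group, bars are SE, and filled red points have an adjusted p under 0.05. Spry2 was -2.06 at E16.5, Gfra1 by the 430B probe set -1.46 at E12.5, and Sox9 2.22 and 2.09 at E12.5 and E13.5.

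In wild type kidneys no member was called between E12.5 and E13.5. With limma 0 of 10 genes passed, 0 also at an unadjusted p under 0.05, beside 0.308% of all probe sets higher and 0.0851% lower. Between E13.5 and E16.5 Spry2 rose and Etv4 fell, 1 each way, beside 11.5% and 9.07%. In null kidneys 0 rose and 2 fell over the same step, Ret and Sox9, beside 5.83% and 9.2%. All wild type arrays of the later step shared a scan day on each design.

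**Figure D3:**
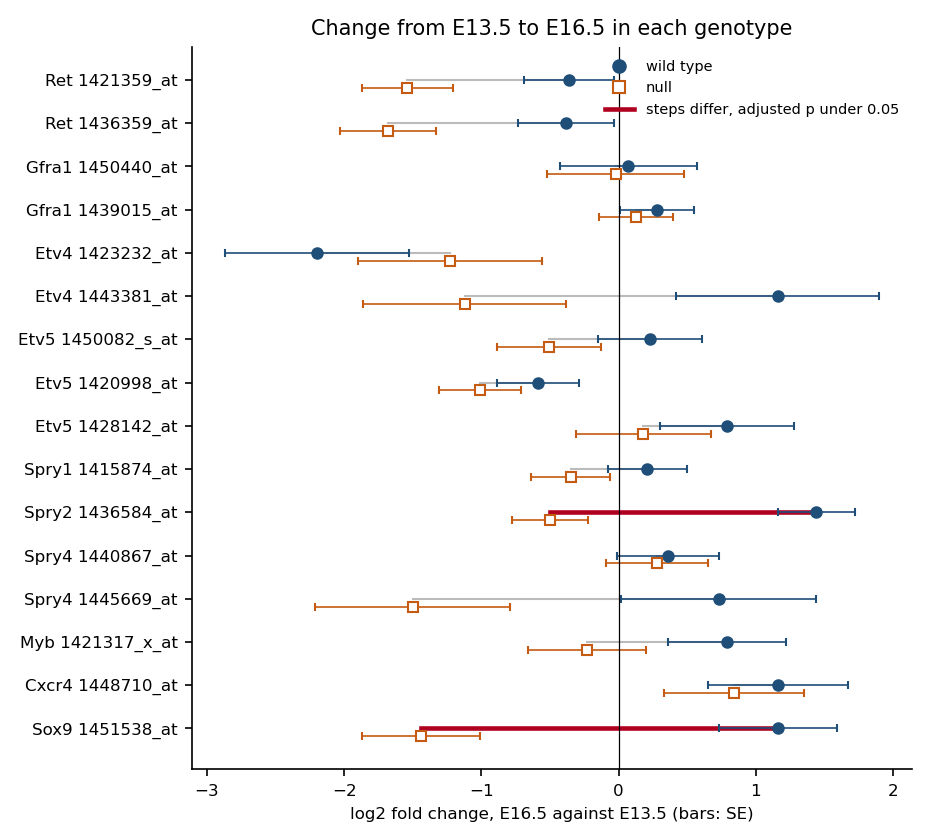
Log2 fold change from E13.5 to E16.5 (x axis) for the 16 tested probe sets, wild type as filled circles and null as open squares with SE bars; the connecting line is grey, and thick and red where the 2 steps differed at an adjusted p under 0.05. Spry2 was 1.44 in wild type and -0.50 in null kidneys, and Sox9 1.16 and -1.44.

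Against the adult the members that were called were higher in embryos. Of the 10 genes 4 rose in wild type E12.5 kidneys (Gfra1, Etv4, Spry1 and Myb) and 0 fell, beside 20.2% of all probe sets higher and 15.1% lower. At E16.5 7 rose (Gfra1, Etv5, Spry1, Spry2, Myb, Cxcr4 and Sox9) and 0 fell, beside 24.6% and 18%. The median member probe set was 0.81 and 1.65, and that of all tested probe sets 0.03 and 0.02. By the probe sets that read them, only Spry1 and Spry4 passed the filter in the adult. The other members passed it through embryonic groups alone, so the filter favoured higher embryonic signal. These counts and medians are therefore no result about the members as a group. By the 430B probe set Ret was added to both. Spry2 exceeded the adult at E16.5 by 1.99 ± 0.28 (adjusted p = 8.7e-05) and at E12.5 gave 0.02 ± 0.28. Of 6 mature nephron markers 6 fell in wild type E12.5 against adult kidneys, and their summed signal on 430A was 137068 to 142338 in the adult, 2337 to 2452 at wild type E12.5 and 17522 to 19772 at wild type E16.5. Adult RNA was also prepared differently, from more RNA and with another reagent, so preparation and age cannot be told apart.

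**Figure D4:**
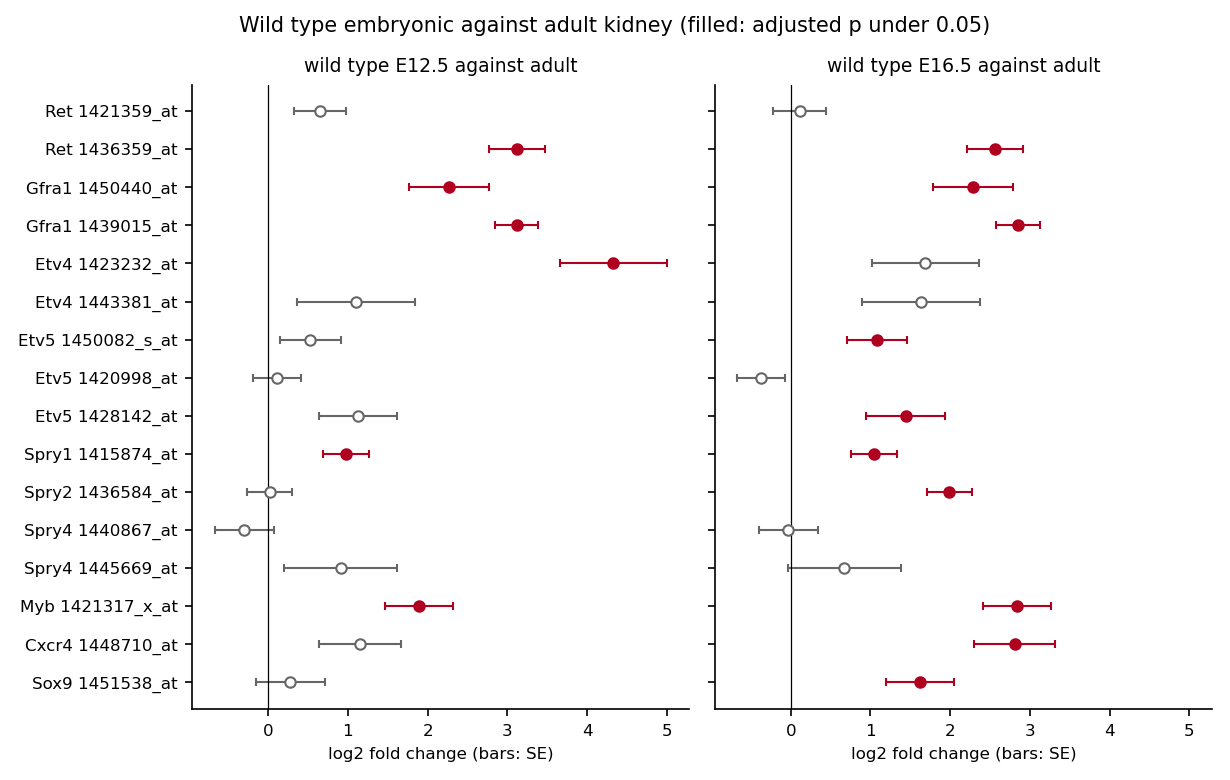
Log2 fold change of wild type E12.5 and of wild type E16.5 against adult kidneys (x axis) for the 16 tested probe sets; points are fitted values with 2 samples per group, bars are SE, and filled points have an adjusted p under 0.05. The 430B probe sets of Ret and Gfra1 were both 3.12 at E12.5, and Ret's 430A probe set was 0.65.

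Gdnf, the ligand of Ret, fell in null samples at E12.5 and E16.5. It was read by 1 probe set on 430A, with 3512 and 3069 in wild type and 1713 and 1448 in null samples at E12.5, 2522 and 2143 against 1955 and 2031 at E13.5, 2345 and 2074.5 against 990.6 and 1075 at E16.5, and 22.8 and 38.2 in the adult. Null samples lay below wild type samples at each stage, closely at E13.5. The fall was -1.06 ± 0.25 (adjusted p = 0.0109) at E12.5 and -1.10 ± 0.25 (adjusted p = 0.00459) at E16.5, and E13.5 gave -0.22 ± 0.25 (adjusted p = 0.546). The effect was not shown to differ between stages (adjusted p = 0.156). Gdnf is made by the cap mesenchyme, whose markers moved as well. Of 6 cap mesenchyme markers 3 fell and 1 rose at E12.5, then 3 and 2 at E13.5 and finally 2 and 1 at E16.5. Their summed signal on 430A was 5639 to 6751 in null and 8309 to 10767 in wild type samples at E12.5, 4552 to 4726 against 5367 to 8621 at E13.5, and 2572 to 4132 against 3608 to 3694 at E16.5. At E12.5 Cited1, a co-factor of the cap, fell by -3.05 ± 0.59, and Six2, which keeps nephron progenitors, gave -0.01 ± 0.30. The part of these cells in the Gdnf values was not tested. Gdnf exceeded the adult, which lay below the floor, by 5.25 ± 0.25 at E12.5 and 4.68 ± 0.25 at E16.5.

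Among 8 ligands and other co-receptors 6 were measured. Cxcl12, the ligand of Cxcr4, read 8578.5 and 10362 in wild type and 22214 and 27579.7 in null samples at E12.5, and rose by 1.39 ± 0.24, 1.75 ± 0.24 and 1.43 ± 0.24 at the 3 stages (adjusted p = 0.00206, 0.000503 and 0.000842). Its other 430A probe set gave 0.58, 0.51 and 0.74, and was called at E16.5 alone. Gfra3, the co-receptor of artemin, rose by 1.12 at E13.5 and fell by -1.06 at E16.5. Neither call was kept under quantile normalization (0.77 and -0.96, adjusted p = 0.181 and 0.0849) or median centring (0.79 and -1.05, adjusted p = 0.16 and 0.0509).

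Of 16 genes that act on Gdnf 12 were measured, and 5 rose and 1 fell at E12.5, then 6 and 1 at E13.5 and finally 4 and 3 at E16.5, beside 12.4% and 6.19%, 14.4% and 8.97%, and 15.9% and 19.2% of all tested probe sets. Eya1, a phosphatase and transcriptional co-activator required for Gdnf in mice, fell at each stage, by -1.48 ± 0.43, -1.44 ± 0.43 and -2.11 ± 0.43 (adjusted p = 0.0278, 0.0265 and 0.0022). Its second 430B probe set was called at E16.5 alone, at -4.12, and gave 1.20 and 0.83 at the earlier stages. Foxc1, a forkhead factor that limits the Gdnf domain, rose by 2.05 ± 0.29, 2.33 ± 0.29 and 1.24 ± 0.29. Bmp4, a stromal ligand that opposes Gdnf signalling, rose by 1.58 ± 0.35, 2.13 ± 0.35 and 1.76 ± 0.35. Foxc1's other probe set gave -0.32 at E16.5. Sall1, a zinc finger factor of the mesenchyme, rose by 1.57 ± 0.48, 3.13 ± 0.48 and 1.61 ± 0.48. The 430B probe set of Sall1 went against this, with -0.56 and 0.48 at the first stages (adjusted p = 0.323 and 0.379) and a fall of -1.72 at E16.5 (adjusted p = 0.00365).

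Signal carriers below the receptor rose in part by the probe sets that read them, and at E16.5 other probe sets of some of these genes fell. Of 24 adaptors and kinases 16 were measured, with 3, 5 and 7 higher at the 3 stages in turn and 0 lower at any, beside 12.4%, 14.4% and 15.9% of all probe sets higher. Other tested probe sets existed for 10 of these genes. At E12.5 they were called higher in 5 genes and lower in 1, and at E13.5 in 4 and 0. At E16.5 they were called higher in 1 gene and lower in 5, beside 15.9% and 19.2% of all tested probe sets. The 5 were Sos1 (-1.37) and Plcg1 (-1.67), both called higher by the probe set that reads them, Grb10 (-1.23), Braf (-2.51 to -1.46 by 3 probe sets) and Pik3ca (-3.65 to -2.68 by 3). Shc1, an adaptor bound by active Ret, rose by 1.41 ± 0.25, 1.58 ± 0.25 and 1.60 ± 0.25, and Akt1, a kinase below PI3 kinase, by 0.91 ± 0.24, 1.53 ± 0.24 and 1.37 ± 0.24. A second 430A probe set of Akt1 rose at all 3 stages, by 1.62 to 3.12, and the 430B one gave 0.83, 0.61 and -0.60 and was not called. The list's median was 0.44, 0.53 and 0.57, beside -0.02, -0.02 and -0.22 over all tested probe sets. At E12.5 it was 0.26 under quantile normalization and -0.02 under median centring, which kept 2 and 1 of the 3 calls. These genes are made by most cells of the kidney.

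Of 11 other ERK target and feedback genes measured, 4 rose in wild type kidneys from E13.5 to E16.5 and 0 fell, beside 11.5% and 9.07% of all probe sets: Spred1, which damps Ras and ERK, by 1.88 ± 0.44, Dusp6, an ERK phosphatase, by 1.66 ± 0.33, the immediate early factor Egr1 by 1.52 ± 0.34 and Phlda1 by 1.40 ± 0.36. In null kidneys 0 rose and 3 fell over that step, Spred2, Il17rd and Phlda1, beside 5.83% and 9.2%, while under median centring 2 rose and 1 fell. At E16.5 2 fell in null against wild type kidneys, Spred1 and Phlda1, and 1 rose, the ERK phosphatase Dusp4, by 0.89 ± 0.27 (adjusted p = 0.0189). Spred1 read 3648 and 1962 in wild type and 624.1 and 542.8 in null kidneys at E16.5, and fell by -2.20 ± 0.44 (adjusted p = 0.00216). Phlda1 read 1101 and 1392 against 370.8 and 402.7 and fell by -1.68 ± 0.36 (adjusted p = 0.00347). Dusp6 gave -0.46 ± 0.33 (adjusted p = 0.295) and Egr1 -0.79 ± 0.34 (adjusted p = 0.082). The effect differed between stages for Phlda1 (adjusted p = 0.0027) and for Spred2, a relative of Spred1 (adjusted p = 0.0194), which rose by 1.09 ± 0.26 at E12.5. Of the 5 other Spred1 probe sets tested 2 were called lower at E16.5, at -1.43 and -2.40. These wild type steps and null effects share the 2 wild type E16.5 samples with those of Spry2.

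**Figure D5:**
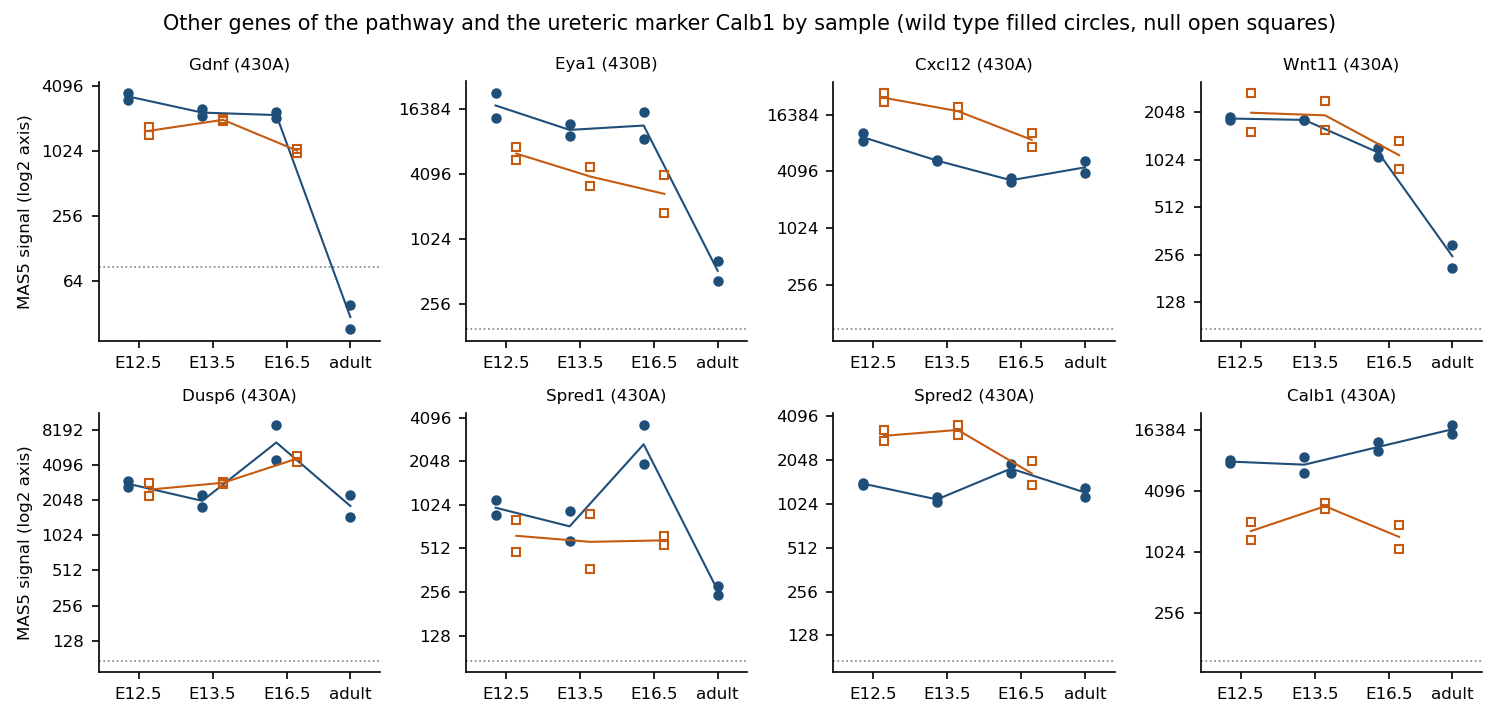
MAS5 signal (log2 axis) of the ligand Gdnf, its regulator Eya1, Cxcl12, the tip gene Wnt11, the feedback genes Dusp6, Spred1 and Spred2, and the ureteric marker Calb1 in every sample; filled circles are wild type, open squares null, lines join geometric means of 2 samples and the dotted line is the floor. Gdnf lay at 3512 and 3069 in wild type and 1713 and 1448 in null samples at E12.5, and Spred1 stood at 3648 and 1962 in wild type E16.5 kidneys.

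Of 11 other genes of the ureteric tip 9 were measured. Wnt11, a tip ligand that Ret raises, read 1824 and 1917 in wild type and 1532 and 2705 in null samples at E12.5, 1842 and 1824 against 1585 and 2423 at E13.5, and 1059 and 1222 against 893.5 and 1341 at E16.5. The genotypes overlapped at each stage, and its differences of 0.12 ± 0.34, 0.10 ± 0.34 and -0.06 ± 0.34 did not pass. It exceeded the adult by 2.90 ± 0.34 at E12.5. In this list 4 rose and 1 fell at E12.5, then 3 and 1 at E13.5 and finally 1 and 0 at E16.5, beside 12.4% and 6.19%, 14.4% and 8.97%, and 15.9% and 19.2% of all. Mmp14, a membrane protease also made by stroma and vessels, rose by 3.54 ± 0.31, 3.56 ± 0.31 and 1.40 ± 0.31, and its 2 other tested probe sets gave 1.22 to 4.87. Lhx1 and Gata3, transcription factors of the nephric duct that nephrons and other cells also use, rose by 2.38 and 2.46 at E12.5. The other Lhx1 probe set gave 0.48 (adjusted p = 0.481). Emx2, a homeobox factor of the bud, was the 1 gene that fell at E12.5, by -1.43 ± 0.39. Met, the receptor of hepatocyte growth factor, fell by -2.52 ± 0.78 at E13.5. It read 4244 and 4712 in wild type and 2498 and 244 in null samples at that stage, so the 2 null samples lay far apart. Of 7 FGF genes 3 were measured, and Fgfr1, a receptor found in mesenchyme, rose at E13.5 by 2.34 ± 0.46.

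Under quantile normalization and median centring, no called gene of these lists turned direction, and 48 of 60 calls in the null comparisons were kept under each. Of the genes named here, Sall1 and Phlda1 lost their E12.5 calls under both (adjusted p = 0.108 to 0.179), Lhx1 under quantile normalization, and Akt1 and Spred2 under median centring. At E13.5 Phlda1 lost its call under both, as did Gfra3, and Eya1 and Met under median centring (adjusted p = 0.0821 and 0.0598).

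The 8 member probe sets that were not tested belong to Gfra1, Spry2, Spry4, Myb and Sox9, and none passed the filter in any group. They read 2.3 to 507.3 over all samples. The 2 of Myb followed the tested one in the adult, where they read 2.3 to 8.7 against 27.3 to 367.1 in embryos. The Gfra1 probe set 1421973_at read 182.4 and 30.4 in the adult, within its embryonic range of 24.5 to 377.4.

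For Ret, Etv4 and Sox9 the 5 genes of most similar pattern were found by Pearson correlation of log2 values over the 14 samples on 430A, as a description, since these samples share stage, genotype and preparation. For Ret's 430A probe set they were Sprr2k, Itfg2, Dda1, Erich3 and Syt7, with r from 0.828 to 0.853. For Etv4 they were Traip, Srm, Cenpm, Fndc4 and Grwd1, with r from 0.951 to 0.968. For Sox9 they were Skp2, Cdk5r1, Bach2, Fn1 and Trpc2, with r from 0.944 to 0.96.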

How the data were processed

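Whole mouse kidney RNA (30 ng embryonic, 100 ng adult, 2 rounds of in vitro transcription, per the labels) of 14 samples was measured on 28 arrays. Per the submitters' processing notes, the deposited signal was made with MAS5, whose version and settings are not given in the sources used here. The files show the same trimmed mean on every array. Run records deposited beside the values gave scanner and scan day, and for 2 arrays, both of adult replicate 2, they name the other design.

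Signals below the 20th percentile of a design were set to it before log2, and probe sets above the 50th percentile in at least 1 group were tested, 30564 in all. The 64 control rows of each design stayed out, as did the 430B copies of 100 probe sets present on both. Group means were fitted in each design with limma 3.58.1 (R 4.3.3) over 14 arrays, with 7 residual degrees of freedom, a trend, two-sided tests and Benjamini-Hochberg adjustment over both designs. The fit was tested on simulated data. Of each list the called genes with the largest change were named, up to 3 a comparison. Cdh1, Acan, Sox5, Matn1, Comp, Emx2 and Wnt11 were named after their values were seen, as were disagreeing probe sets. The 10 members, the lists and the tests were chosen with earlier results of these data known. Alternatives changed the normalization (quantile, median centring), the handling of low values (an added offset, a higher floor, no filter, a stricter filter), the model (no trend, a replicate block, scan day as a random effect, the actin ratio as a covariate, only the groups compared), the probe set, and the samples, leaving out each in turn. Promoters are of RefSeq GRCm38.p6.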

Additional observations from a re-analysis of the deposited data

Results flagged for a closer look

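The effect of the null genotype on Spry2 differed between E12.5, E13.5 and E16.5, by the moderated F test of the difference itself (adjusted p = 0.00191). It was 0.66, -0.12 and -2.06 on the log2 scale. The effect on Sox9 differed likewise (adjusted p = 0.0126), at 2.22, 2.09 and -0.51. Sox9 passed the filter only in null E12.5 and null E13.5, so the filter favoured such a difference. The null E16.5 arrays were read on another scanner type than all other arrays, and the part of that in both differences was not tested.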

How the results depend on the processing

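The 39 called values of member probe sets were recomputed in 647 alternatives: 512 kept their direction and call, 127 lost the call and 8 changed direction. For 10 of the 39 no alternative ended the call, other probe sets and alternatives added later aside. The actin ratio as a covariate ended 17 of 39 calls, and fitting only the groups compared ended 15. Both have fewer residual degrees of freedom. The actin ratio also moves with genotype, without overlap between null and wild type embryonic samples on either design. The part of each in the lost calls was not tested. Member genes called at E12.5 (2) became 0 under quantile normalization, median centring, the filter at the 70th percentile and the actin covariate, 1 with no filter, scan day as a random block and only the groups compared, and 4 counting any tested probe set, added after the data were seen. At E13.5 (2) they became 1 under quantile normalization and the filter at the 70th percentile, and 0 under median centring, the actin covariate and only the groups compared. At E16.5 (2) they became 1 under quantile normalization, no filter, the filter at the 70th percentile, scan day, the actin covariate and only the groups compared. Over the mean of the stages (4) they became 2 under median centring and the filter at the 70th percentile, 0 under the actin covariate and 7 counting any tested probe set. For wild type E16.5 against E13.5 (2) they became 1 with the floor at the 40th percentile, no filter and only the groups compared. For null E16.5 against E13.5 (2) they became 1 under quantile normalization, median centring, the offset, no filter, scan day and the actin covariate, and 0 under the filter at the 70th percentile and only the groups compared. For wild type E12.5 against adult (4) they became 2 with the floor at the 40th and the filter at the 70th percentile. For wild type E16.5 against adult (7) they became 4 under median centring and the floor at the 40th percentile, and 3 under the filter at the 70th. For the difference between stages (2) they became 1 under quantile normalization, median centring and the filter at the 70th percentile. The filter at the 70th percentile tests fewer members, and Sox9 was also not tested under quantile normalization and median centring. The cause of the other changes was not tested. Leaving out each sample gave 1 to 1 at E12.5, 1 to 2 at E13.5, 1 to 3 at E16.5, 3 to 5 over the stages, 1 to 3 and 1 to 1 for the later wild type and null steps, 3 to 4 and 5 to 6 against the adult, and 1 to 3 for the difference between stages.

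Values that changed direction were Etv4 at null E12.5 (2.27 by the 430B probe set, -0.64 by the 430A one) and Etv4 in wild type E16.5 against E13.5 (-2.20 and, by the 430B probe set, 1.16). Over the stages Ret (-0.74) and Gfra1 (-0.71) by the 430B probe sets both became 0.08 by the 430A ones, and Spry2 (-0.51) became 0.27 without E16.5, also added later. Etv5 by 1420998_at in null E16.5 against E13.5 (-1.01) became 0.18 by 1428142_at, and its 1.08 and 1.44 in wild type E16.5 against adult became -0.37 by 1420998_at. The cause was not tested. With the replicate block, 38 of 39 calls were kept, and Etv4 by the 430B probe set at E12.5 stayed at 2.27 with adjusted p = 0.0535. Member genes called with the replicate block were 2 at each of the 3 stages, 5 over the stages, 3 and 2 for the later wild type and null steps, 4 and 8 against the adult and 3 for the difference between stages. Deviations of same-numbered samples correlated at -0.353 to 0.177 over the tested probe sets. With 2 samples per group this cannot tell whether same-numbered samples share more than a number.

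Median centring moved the median of all tested probe sets from -0.02 to -0.21 at E12.5, from -0.22 to 0.14 at E16.5, from 0.04 to -0.18 for wild type E13.5 against E12.5 and from -0.26 to 0.14 for null E16.5 against E13.5. Quantile normalization moved the E16.5 and the null step medians to 0.00 and -0.06. Of all calls, the share that was higher went from 66.7% to 44.5% at E12.5, from 45.3% to 62.2% at E16.5 and from 38.8% to 79.5% for the null step under median centring. It was 61.6% for the null step under quantile normalization. For wild type E13.5 against E12.5 it went from 78.3% to 62.2% (quantile) and 50.6% (median). Calls over all probe sets fell under the actin covariate from 5685 to 779 at E12.5, from 7152 to 1208 at E13.5, from 14320 to 3395 over the stages, from 4594 to 2780 for the null step and from 4364 to 2438 for the difference between stages. Fitting only the groups compared gave 357 at E13.5, 2821 in place of 6275 for the later wild type step and 325 for the null step, and quantile normalization gave 2726 for the null step. The 120 calls of wild type E13.5 against E12.5 ran from 0 (only the groups compared) to 346 (no filter). Leaving out 1 sample gave as few as 2049 at E12.5, 3580 at E13.5, 6098 of 10728 at E16.5, 2060 and 1262 for the later wild type and null steps, 3 to 455 for the early wild type step and 1732 for the difference between stages. With 2 arrays per group, smaller differences may not be detectable.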
